A study of Sus scrofa with 8 samples.

Results

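The class II genes of the swine leukocyte antigen (SLA) complex, the pig's major histocompatibility complex, were read from 33 of 43603 non-control probes: every probe whose platform gene symbol starts with SLA-D, and every CD74 probe. They stand for 9 symbols, with 7 probes for SLA-DRA, 4 for SLA-DRB1, 7 for SLA-DQA, 2 for SLA-DQA1, 4 for SLA-DQB1, 2 for CD74, 2 for SLA-DMA, 2 for SLA-DMB and 3 for SLA-DOB. RefSeq (Sscrofa11.1) names the accession shared by the 7 SLA-DQA probes SLA-DQA1, so these 9 probes are described together as DQ alpha chain probes. In the same annotation the SLA class II genes lie together on chromosome 7 and CD74 lies on chromosome 2. Of the 33 probes, 32 passed the filter on dim probes, 24 were above background in all 8 samples, and 0 were saturated in any sample. The exception to the filter was 1 of the SLA-DOB probes (A_72_P440006), which was above background in no sample.

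Transcripts were measured on oligonucleotide arrays in sorted T cells from 2 Large White x Landrace sows. The 4 groups, each of 2 samples with 1 from each sow, were colostrum double positive (DP) cells, sorted as CD3+/CD4+/CD8+; colostrum CD8 single positive (CD8 SP) cells, sorted as CD3+/CD4-/CD8+; blood DP cells; and blood CD8 SP cells. Colostrum is the first milk, and mature T cells that carry both CD4 and CD8 are a normal population of the pig. Every colostrum sample carried the dye Alexa Fluor 3 and every blood sample Alexa Fluor 5, so dye and source cannot be told apart in any comparison of colostrum with blood, whereas both populations of 1 source carried the same dye. The sows' age is not given in the labels, and p-values measure the spread between 2 animals. In sorted bulk samples, fewer cells carrying a transcript and less of it per cell cannot be told apart.

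Class II molecules are pairs of an alpha and a beta chain that show peptides from endosomes to CD4+ T cells. SLA-DRA pairs with SLA-DRB1, and the SLA-DQA and SLA-DQB1 chains pair with each other. CD74, the invariant chain, guides new class II molecules to the endosome, where DM (SLA-DMA with SLA-DMB) loads the peptide and DO, which holds SLA-DOB, restrains DM. These genes are best known from B cells, dendritic cells and macrophages, and share the transactivator CIITA. Pig T cells can carry class II molecules themselves, on many CD8+ cells and after activation, whereas mouse T cells make almost none.

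All levels are quantile-normalized log2 intensities with a floor at 5.34, and a difference of 1 is 2-fold. A probe counted as above background where it exceeded the 95th percentile of the negative-control spots, as 31.1% to 34.7% of all probes did in the colostrum samples and 28.9% to 36.1% in the blood samples. The number of arrays limits the precision. CD3E, a chain of the T cell receptor complex that defines the sorted cells, lay at 11.34 to 12.25 in all 8 samples. CD8B, the CD8 beta chain, was above background in the 4 CD8 SP samples and in no DP sample. CD4 was above background in 5 samples, at 7.13 and 7.0 in colostrum DP cells and 9.72 and 8.41 in blood DP cells, but also at 6.94 in the colostrum CD8 SP cells of sow 2.

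Most class II probes were dimmer in colostrum than in blood cells of the same population, and dimmer in DP than in CD8 SP cells of the same source, but limma called none of them. The median difference over the 32 tested probes was -0.72 for colostrum against blood in DP cells, -1.0 for colostrum against blood in CD8 SP cells, -0.90 for DP against CD8 SP cells in colostrum and -1.02 in blood. The medians over all 30522 tested probes lay between -0.01 and 0.00 in these comparisons. The lowest adjusted p of any class II probe (limma, Benjamini-Hochberg over all tested probes) was 0.700, 0.897, 0.669 and 0.972 in the same order, and 0% of all probes were called in each. Unadjusted p-values under 0.05 were held by 10, 8, 8 and 11 class II probes, against 6.32%, 5.45%, 7.13% and 5.12% of all probes (1930, 1663, 2175 and 1562).

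Because no probe was called, the shift is described by its size within each sow. In DP cells, 11 of 32 class II probes were at least 2-fold lower in colostrum than in blood in both sows, against 3% of all tested probes. In CD8 SP cells this held for 4, against 2.62%. DP cells were at least 2-fold below CD8 SP cells in both sows for 8 probes in colostrum, against 3.28%, and for 11 in blood, against 2.36%. A 2-fold excess in both sows was held by 1 probe, of SLA-DOB, in colostrum DP over CD8 SP cells (3.23% of all probes), and by 0 in DP over CD8 SP cells of blood (2.51%) and in colostrum over blood (2.73% in DP and 2.65% in CD8 SP cells). Lower in both sows by any amount were 20, 25, 25 and 25 of 32 probes in the order used above, against 26.9%, 27.4%, 24.2% and 24.4% of all probes. The samples of the lower group did not overlap those of the other group for 16, 20, 19 and 23 probes, against 18.1%, 18.4%, 16.3% and 16.6%. The probes read only 9 symbols, and probes of 1 gene are not independent. Of those at least 2-fold lower in both sows, 6, 2, 4 and 6 read SLA-DRA, in the same order. With 1 probe per gene, 2, 0, 2 and 2 of 9 probes were so, against 4.9%, 3.63%, 3.66% and 2.17% of all probes kept.

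Class II probes are bright, so the same counts were read among the 6335 probes above background in all 8 samples, a choice made after the data were seen. Of the 24 class II probes among them, 9 were at least 2-fold lower in both sows in colostrum than in blood DP cells, against 3.33%, and 4 in CD8 SP cells, against 2.49%. For DP against CD8 SP cells it was 7 in colostrum, against 0.679%, and 9 in blood, against 0.505%. Here too several probes read the same gene.

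**Figure D1:**
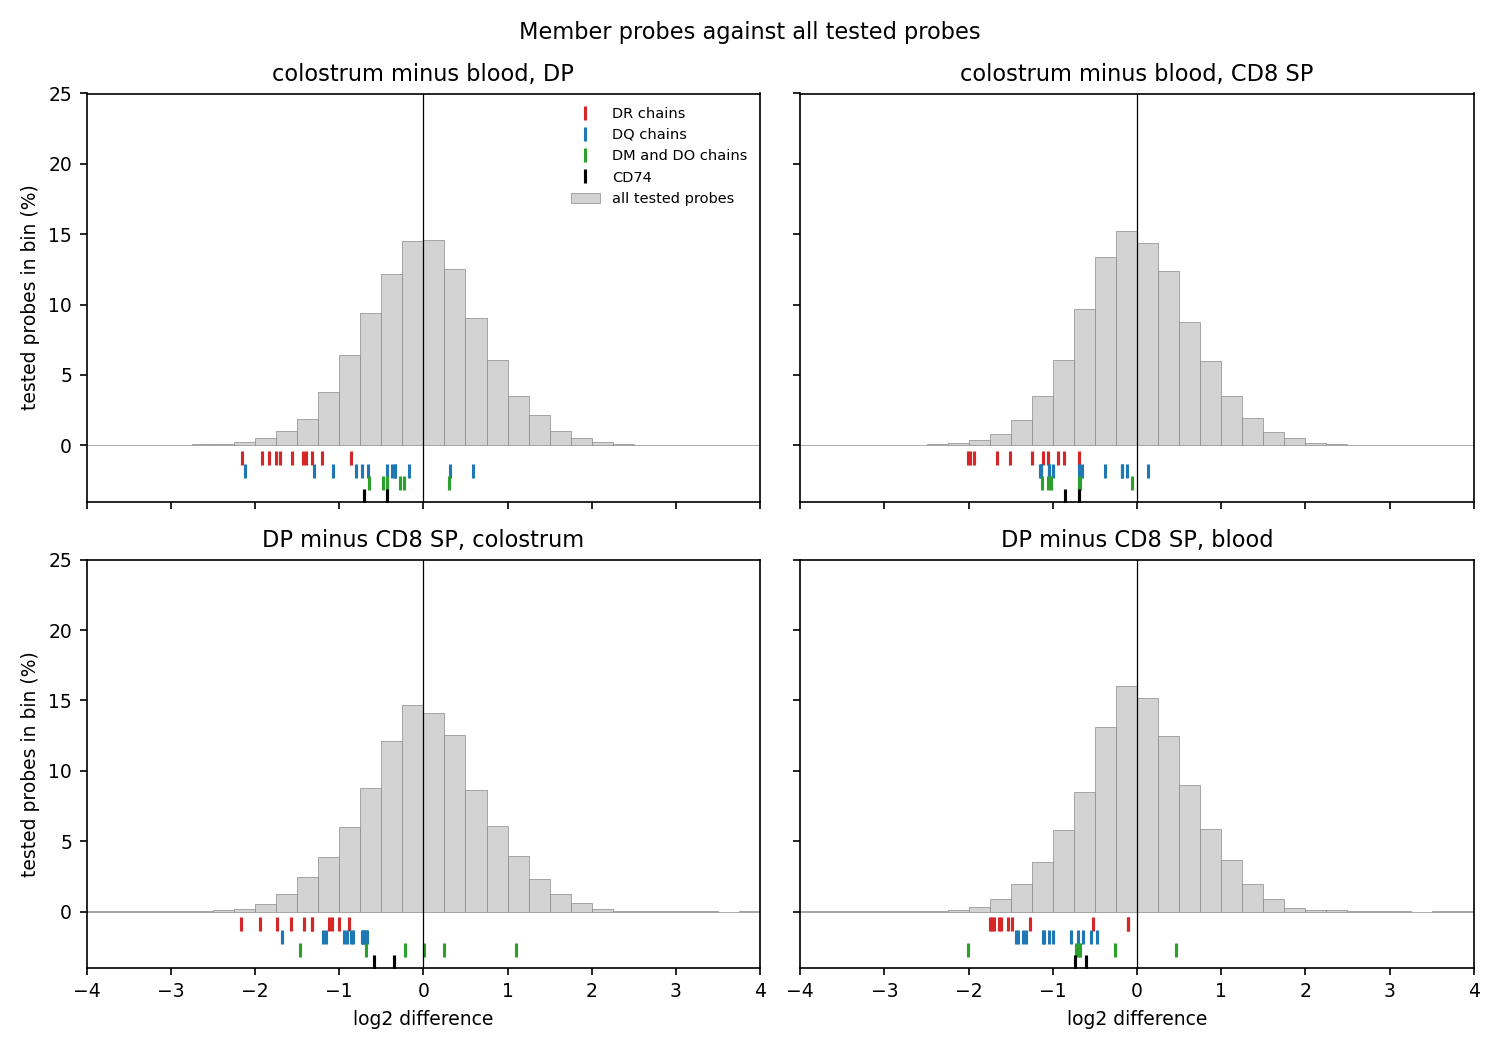
Share of all tested probes (grey bars, % in bins of the log2 difference) and the class II probes (coloured ticks below the bars, 1 tick per probe, by chain) for colostrum minus blood in DP and CD8 SP cells and for DP minus CD8 SP cells in colostrum and blood. The DR ticks lie left of 0 in all 4 panels, while DM and DO ticks fall on both sides of 0 in 3 of them.

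SLA-DRA encodes the DR alpha chain, and its 7 probes gave the most uniform pattern. Probe A_72_P683574 stood at 9.0 and 8.29 in colostrum DP cells, 10.99 and 10.17 in colostrum CD8 SP cells, 10.31 and 9.84 in blood DP cells, and 11.99 and 11.65 in blood CD8 SP cells (sow 1, then sow 2, here and below). Probe A_72_P176171 stood at 8.33 and 7.74 in colostrum DP, 10.49 and 9.91 in colostrum CD8 SP, 9.74 and 9.45 in blood DP, and 11.51 and 11.13 in blood CD8 SP cells. For both probes the colostrum DP samples were the lowest and the blood CD8 SP samples the highest, and neither group overlapped any other.

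Relative to CD8 SP cells, the SLA-DRA signal of A_72_P683574 in DP cells was lower by a log2 difference of -1.94 ± 0.54 in colostrum (limma SE, n = 2 per group; adjusted p = 0.669) and -1.74 ± 0.54 in blood (adjusted p = 0.972). Relative to blood, it differed by -1.43 ± 0.54 in colostrum DP cells (adjusted p = 0.756) and by -1.24 ± 0.54 in colostrum CD8 SP cells (limma adjusted p = 0.912). A_72_P176171 had the largest DP against CD8 SP difference of the class II probes in colostrum, -2.16 ± 0.51, with -2.16 in sow 1 and -2.17 in sow 2. Its difference in blood was -1.73 ± 0.51, with -1.77 and -1.68 in the sows. The 2 sows thus gave nearly the same values at this probe, although its adjusted p (limma) was 0.669 in colostrum and 0.972 in blood.

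The SLA-DRA probe with the highest signal, A_72_P561324, stood at 11.57 and 9.20 in colostrum DP, 12.27 and 11.65 in colostrum CD8 SP, 12.58 and 12.01 in blood DP, and 12.40 and 13.26 in blood CD8 SP cells. Here the colostrum DP sample of sow 2 was far below the other 7, and the DP and CD8 SP samples overlapped in blood. Within sows, the DP minus CD8 SP difference was -0.69 and -2.45 in colostrum and 0.19 and -1.24 in blood, so that sow 1 gave the opposite sign in blood. Probe A_72_P610249 was the dimmest of the 7, at 7.10 and 5.67 in colostrum DP, 8.30 and 6.47 in colostrum CD8 SP, 8.10 and 7.31 in blood DP, and 9.28 and 9.51 in blood CD8 SP cells. Its colostrum samples of sow 2 approached the floor, and DP and CD8 SP samples overlapped in colostrum.

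The other 3 SLA-DRA probes spanned 7.22 to 9.54 in colostrum DP, 8.08 to 10.95 in colostrum CD8 SP, 9.07 to 10.51 in blood DP and 10.49 to 11.89 in blood CD8 SP cells. Over all 7 probes, the differences ran from -1.91 to -1.21 for colostrum against blood in DP cells and from -2.01 to -0.87 in CD8 SP cells. For DP against CD8 SP cells they ran from -2.16 to -1.0 in colostrum and from -1.74 to -0.53 in blood. At least 2-fold lower in both sows were 6 and 2 of the 7 probes in colostrum against blood (DP, then CD8 SP cells), and 4 and 6 in DP against CD8 SP cells (colostrum, then blood). All 7 were lower in each of these comparisons with any 1 sample left out and under every alternative that changed the normalized values. The remaining alternatives keep these differences by design.

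**Figure D2:**
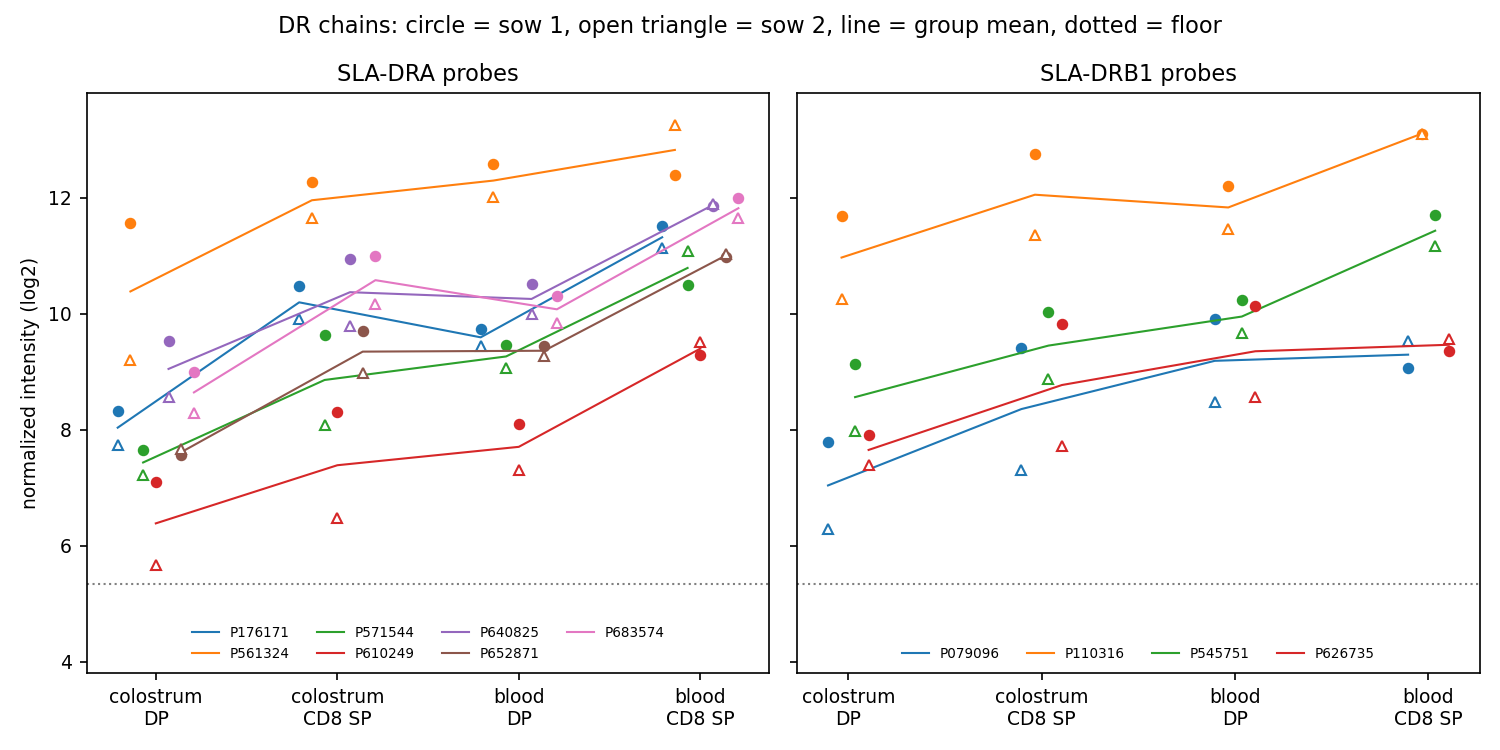
Normalized log2 intensity (y axis) of the SLA-DRA probes (left) and SLA-DRB1 probes (right) in each sample of the 4 groups (x axis); circles are sow 1, open triangles sow 2, lines join the group means and the dotted line is the floor. The mean of every probe is lowest in colostrum DP and highest in blood CD8 SP cells.

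SLA-DRB1, the DR beta chain, was read by 4 probes that fell into unlike pairs in blood. A_72_P545751 stood at 9.14 and 7.98 in colostrum DP, 10.03 and 8.87 in colostrum CD8 SP, 10.24 and 9.66 in blood DP, and 11.70 and 11.17 in blood CD8 SP cells. A_72_P110316 stood at 11.68 and 10.26 in colostrum DP, 12.76 and 11.35 in colostrum CD8 SP, 12.20 and 11.47 in blood DP, and 13.10 and 13.11 in blood CD8 SP cells. At both probes blood CD8 SP cells were above the other groups in every sample, while in colostrum the DP sample of sow 1 lay above the CD8 SP sample of sow 2.

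In blood, these SLA-DRB1 probes differed between DP and CD8 SP cells by -1.48 ± 0.62 (A_72_P545751) and -1.27 ± 0.67 (A_72_P110316). The remaining pair differed by -0.11 ± 0.81 (A_72_P079096) and -0.11 ± 0.76 (A_72_P626735), with sow 1 higher in DP cells (0.85 and 0.78) and sow 2 lower (-1.06 and -1.0). A_72_P079096 stood at 7.78 and 6.29 in colostrum DP, 9.41 and 7.30 in colostrum CD8 SP, 9.91 and 8.47 in blood DP, and 9.06 and 9.53 in blood CD8 SP cells. At this probe only the DP groups of colostrum and blood were clear of each other among the comparisons made, at -2.15 ± 0.81 for colostrum DP against blood DP cells (limma adjusted p = 0.756) and the same sign in both sows (-2.12 and -2.18). A_72_P626735 gave -1.70 ± 0.76 for the same comparison. In CD8 SP cells both probes were above blood in colostrum of sow 1 (0.35 and 0.46) and below it in sow 2 (-2.23 and -1.85).

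RefSeq places SLA-DRB4 and SLA-DRB5 in the same gene cluster as SLA-DRB1, and probes for similar genes can share signal. How alike these genes are was not examined. Some class II chains, though not all, are also among the most polymorphic of genes. The match of each probe to the alleles of each sow was not tested. The 11 DR probes had a median difference of -1.56 for colostrum against blood in DP cells, -1.24 in CD8 SP cells, and for DP against CD8 SP cells -1.32 in colostrum and -1.53 in blood.

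The DQ alpha chain was read by 9 probes, whose differences varied in sign in the comparisons of colostrum with blood. Their median was -0.43 for colostrum against blood in DP cells and -0.38 in CD8 SP cells, against -0.72 for DP against CD8 SP cells in colostrum and -1.0 in blood. All 9 had a lower mean in DP than in CD8 SP cells in both sources. Relative to blood, 7 of 9 had a lower mean in colostrum DP cells and 8 of 9 in colostrum CD8 SP cells.

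A_72_P721473 stood at 8.94 and 8.91 in colostrum DP, 10.18 and 9.98 in colostrum CD8 SP, 10.02 and 10.42 in blood DP, and 11.24 and 11.20 in blood CD8 SP cells. Colostrum DP samples were the lowest and blood CD8 SP samples the highest, with the other groups between them. This SLA-DQA probe differed by -1.30 ± 0.48 for colostrum DP against blood DP cells (limma adjusted p = 0.748) and by -1.14 ± 0.48 for colostrum CD8 SP against blood CD8 SP cells (0.909). Under 75th percentile scaling it had the lowest adjusted p of any class II probe under any alternative, 0.0566 in DP cells, still short of the threshold.

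A_72_P712598 gave another picture for the source of the cells, at 9.15 and 9.07 in colostrum DP, 9.83 and 10.12 in colostrum CD8 SP, 8.55 and 8.50 in blood DP, and 9.48 and 10.21 in blood CD8 SP cells. At this SLA-DQA probe colostrum DP samples lay above blood DP samples (0.58 ± 0.50), and the CD8 SP samples of the 2 sources overlapped (0.13 ± 0.50). Its DP samples lay below its CD8 SP samples in both sources, by -0.86 ± 0.50 in colostrum and -1.32 ± 0.50 in blood. A_72_P244477 had the same signs in the means for DP cells, 0.32 ± 0.51 for colostrum against blood and -1.11 ± 0.51 for DP against CD8 SP cells in blood. At both probes the comparison of colostrum with blood DP cells turned below 0 under 75th percentile scaling.

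The SLA-DQA probe with the highest signal, A_72_P763148, stood at 10.48 and 10.03 in colostrum DP, 11.22 and 10.72 in colostrum CD8 SP, 11.02 and 10.81 in blood DP, and 11.88 and 12.05 in blood CD8 SP cells. The 2 middle groups overlapped, and the lowest and the highest group stood clear of them. The SLA-DQA1 probe A_72_P743257 likewise had its lowest samples in colostrum DP and its highest in blood CD8 SP cells, at 8.81 and 8.74 in colostrum DP, 9.57 and 9.35 in colostrum CD8 SP, 9.43 and 9.58 in blood DP, and 10.53 and 10.70 in blood CD8 SP cells. In blood its DP cells were below CD8 SP cells by -1.10 in sow 1 and -1.12 in sow 2, a difference of -1.11 ± 0.47 (limma adjusted p = 0.972).

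The remaining SLA-DQA probes A_72_P720353, A_72_P746609 and A_72_P750437 spanned 7.50 to 10.30 in colostrum DP, 8.35 to 10.998 in colostrum CD8 SP, 8.25 to 11.08 in blood DP and 8.47 to 11.79 in blood CD8 SP cells. The second SLA-DQA1 probe, A_72_P765361, was dim in all groups (5.34 to 7.27). It was above background in no blood DP sample, where blood DP cells were at least 1.21-fold lower than blood CD8 SP cells.

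SLA-DQB1, the DQ beta chain, was lowest on average in colostrum DP and highest in blood CD8 SP cells at all 4 probes. A_72_P672583 stood at 9.33 and 10.11 in colostrum DP, 10.90 and 11.89 in colostrum CD8 SP, 11.46 and 12.22 in blood DP, and 12.38 and 12.68 in blood CD8 SP cells. Its colostrum DP samples lay below all 6 others. The difference for colostrum DP against blood DP cells was -2.12 ± 0.58, with -2.13 in sow 1 and -2.10 in sow 2, and it had the lowest adjusted p (limma) of the class II probes in that comparison, 0.700.

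The other SLA-DQB1 probes did not share that agreement between sows for DP cells. A_72_P039061 stood at 9.75 and 9.27 in colostrum DP, 10.33 and 11.06 in colostrum CD8 SP, 9.46 and 11.15 in blood DP, and 11.48 and 11.999 in blood CD8 SP cells. A_72_P631166 stood at 9.23 and 9.61 in colostrum DP, 9.93 and 10.59 in colostrum CD8 SP, 10.37 and 8.82 in blood DP, and 10.56 and 11.34 in blood CD8 SP cells. Colostrum DP minus blood DP was thus 0.28 and -1.88 in the 2 sows at the first probe and -1.14 and 0.79 at the second, with the odd sow not the same. A_72_P585101 gave -0.10 and -0.63 there. For DP against CD8 SP cells all 4 probes were lower in both sows and both sources, by -0.73 to -1.68 in colostrum and -0.70 to -1.43 in blood.

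CD74, the invariant chain, was read by 2 probes that moved together (r = 0.97 over the 8 samples). A_72_P796773 stood at 10.42 and 10.43 in colostrum DP, 10.96 and 11.07 in colostrum CD8 SP, 12.08 and 10.18 in blood DP, and 11.85 and 11.88 in blood CD8 SP cells. A_72_P223292 stood at 7.84 and 8.26 in colostrum DP, 8.33 and 8.46 in colostrum CD8 SP, 9.14 and 7.83 in blood DP, and 9.23 and 8.95 in blood CD8 SP cells. The sows agreed closely in 3 groups and were far apart in blood DP cells. There sow 1 was the highest of all 8 samples at A_72_P796773 and near the highest at A_72_P223292. Sow 2 was the lowest of all 8 at both probes.

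At A_72_P796773, CD74 in colostrum CD8 SP cells differed from blood CD8 SP cells by -0.85 ± 0.63 (-0.90 and -0.80 in the sows) and in colostrum DP cells from blood DP cells by -0.70 ± 0.63 (-1.66 and 0.25). DP against CD8 SP cells gave -0.59 ± 0.63 in colostrum (-0.54 and -0.64) and -0.73 ± 0.63 in blood (0.22 and -1.69). None reached 2-fold in both sows, and the adjusted p-values (limma) of the 2 CD74 probes were 0.928 or higher.

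**Figure D3:**
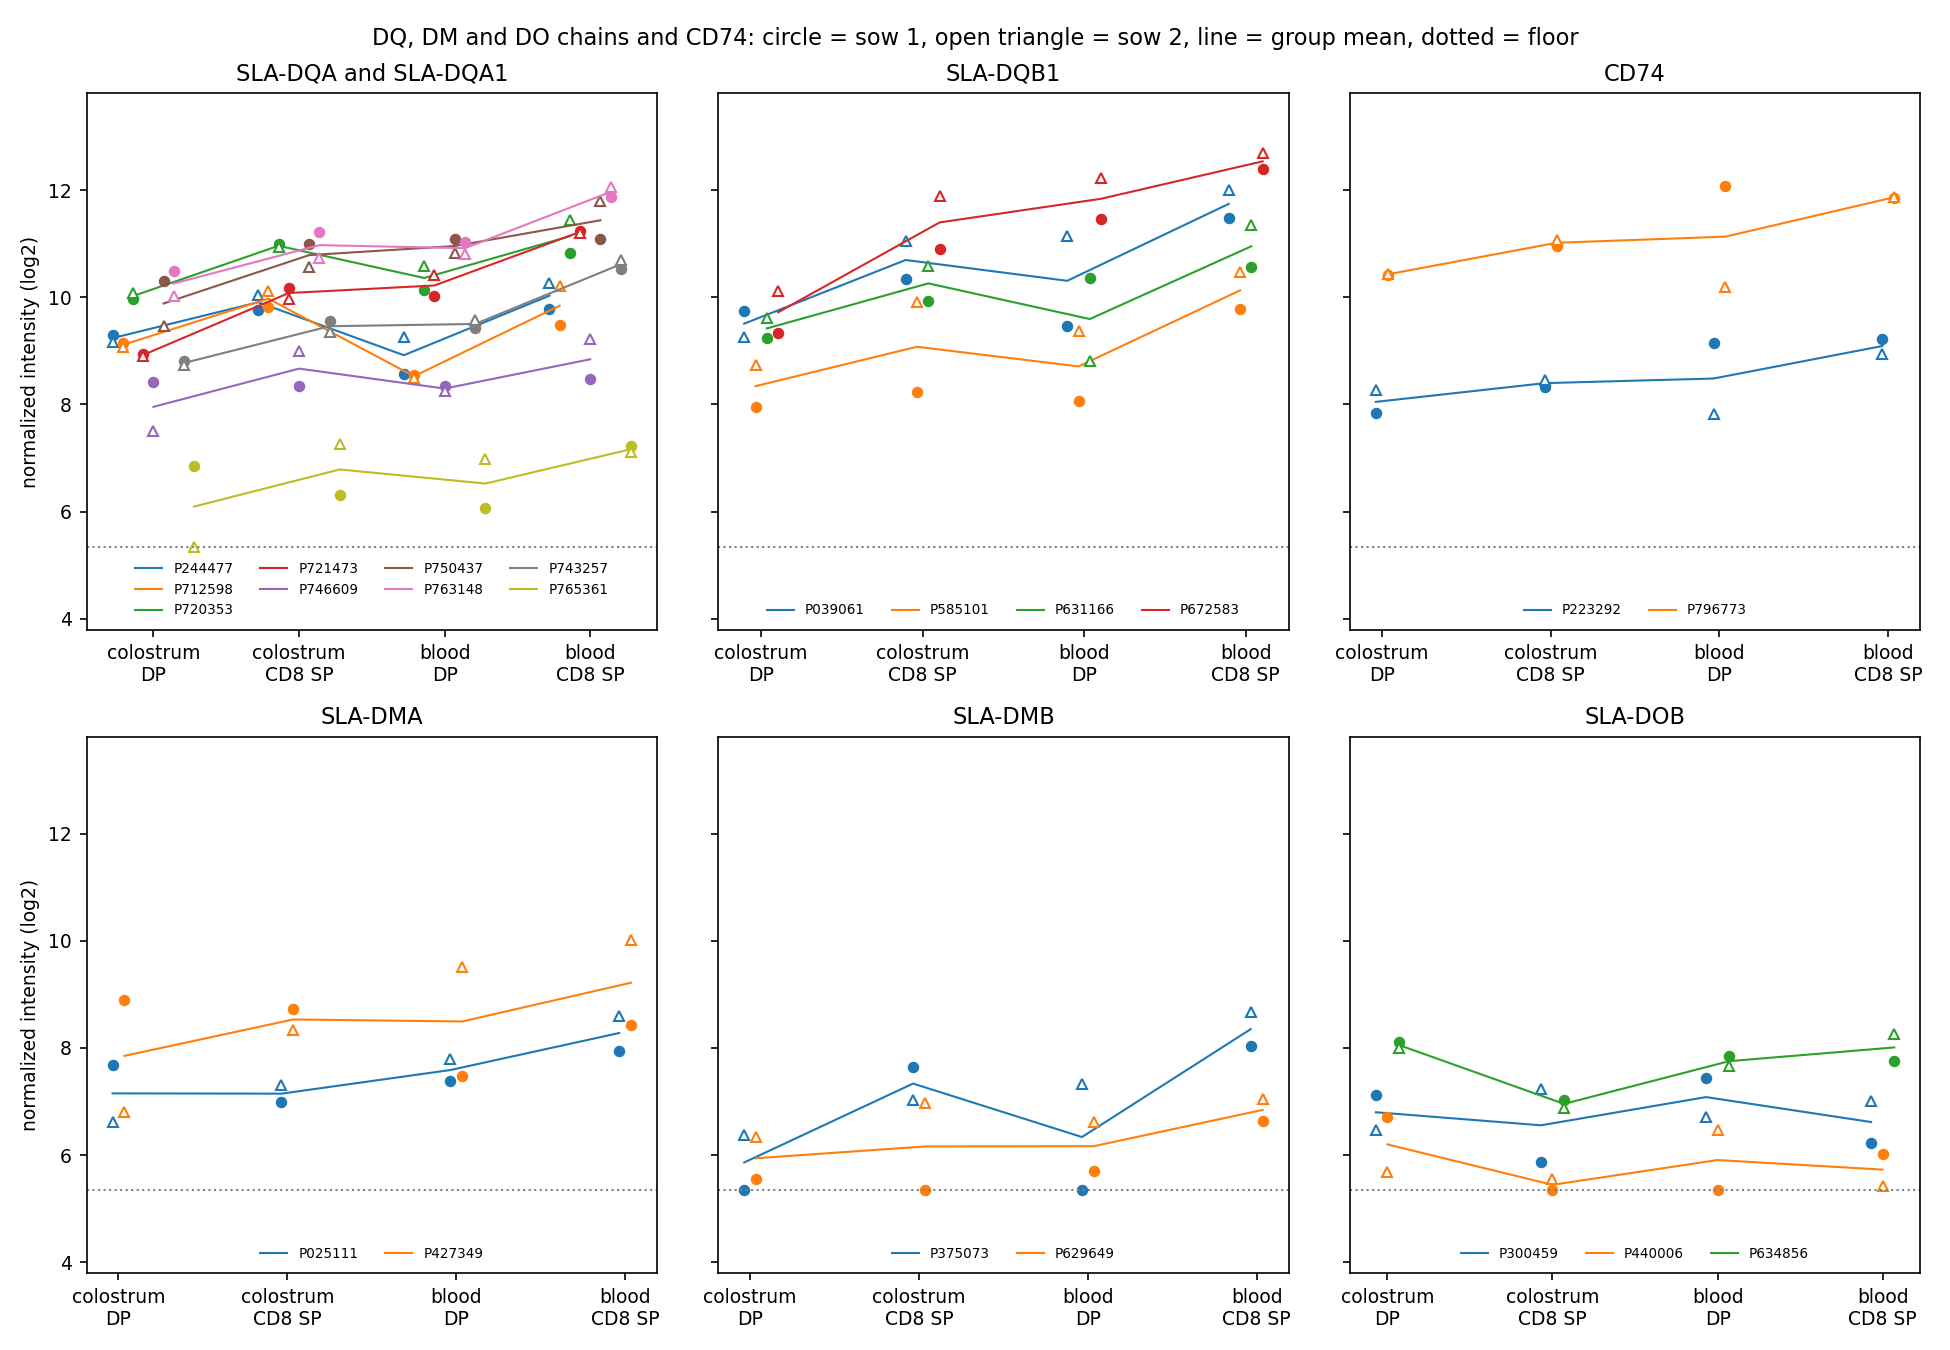
Normalized log2 intensity (y axis) of the DQ, CD74, DM and DOB probes in each sample of the 4 groups (x axis); circles are sow 1, open triangles sow 2, lines join the group means and the dotted line is the floor. CD74 in blood DP cells shows sow 1 and sow 2 far apart (12.08 and 10.18 at A_72_P796773), and several DM and DOB values lie near the floor.

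SLA-DMA, the alpha chain of the peptide loader, had 2 probes. A_72_P427349 stood at 8.89 and 6.81 in colostrum DP, 8.73 and 8.33 in colostrum CD8 SP, 7.48 and 9.50 in blood DP, and 8.42 and 10.01 in blood CD8 SP cells. All 4 comparisons overlapped at this probe, and colostrum DP minus blood DP was 1.41 in sow 1 and -2.69 in sow 2. A_72_P025111 stood at 7.69 and 6.61 in colostrum DP, 7.0 and 7.30 in colostrum CD8 SP, 7.39 and 7.79 in blood DP, and 7.95 and 8.61 in blood CD8 SP cells. There, colostrum CD8 SP cells were below blood CD8 SP cells in both sows (-0.96 and -1.31).

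SLA-DMB, the beta chain of the loader, was close to background in DP cells. A_72_P375073 stood at 5.34 and 6.39 in colostrum DP, 7.64 and 7.03 in colostrum CD8 SP, 5.34 and 7.33 in blood DP, and 8.04 and 8.67 in blood CD8 SP cells. It was above background in neither colostrum DP sample, which gives at least 1.32-fold lower in DP than in CD8 SP cells of colostrum. In blood, 1 of 2 DP samples measured it, that of sow 2, where DP minus CD8 SP was -1.33. The blood DP sample of sow 1 lay at the floor, so its difference has no exact size, and this probe counts among those 2-fold lower in both sows of blood by that floor value. A_72_P629649 was dim throughout, between 5.34 and 7.05.

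SLA-DOB, the beta chain of DO, departed from the other genes. A_72_P634856 stood at 8.11 and 8.0 in colostrum DP, 7.03 and 6.89 in colostrum CD8 SP, 7.85 and 7.66 in blood DP, and 7.76 and 8.26 in blood CD8 SP cells. Colostrum CD8 SP samples were the lowest, and the other 3 groups were close to each other. DP cells were above CD8 SP cells in colostrum by 1.10 ± 0.49 (1.08 and 1.12 in the sows, limma adjusted p = 0.696), against -0.26 ± 0.49 in blood. A_72_P300459 lay between 5.88 and 7.45. It was above background in 3 samples, and blood DP minus blood CD8 SP was 1.22 in sow 1 and -0.29 in sow 2, with overlapping groups.

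**Figure D4:**
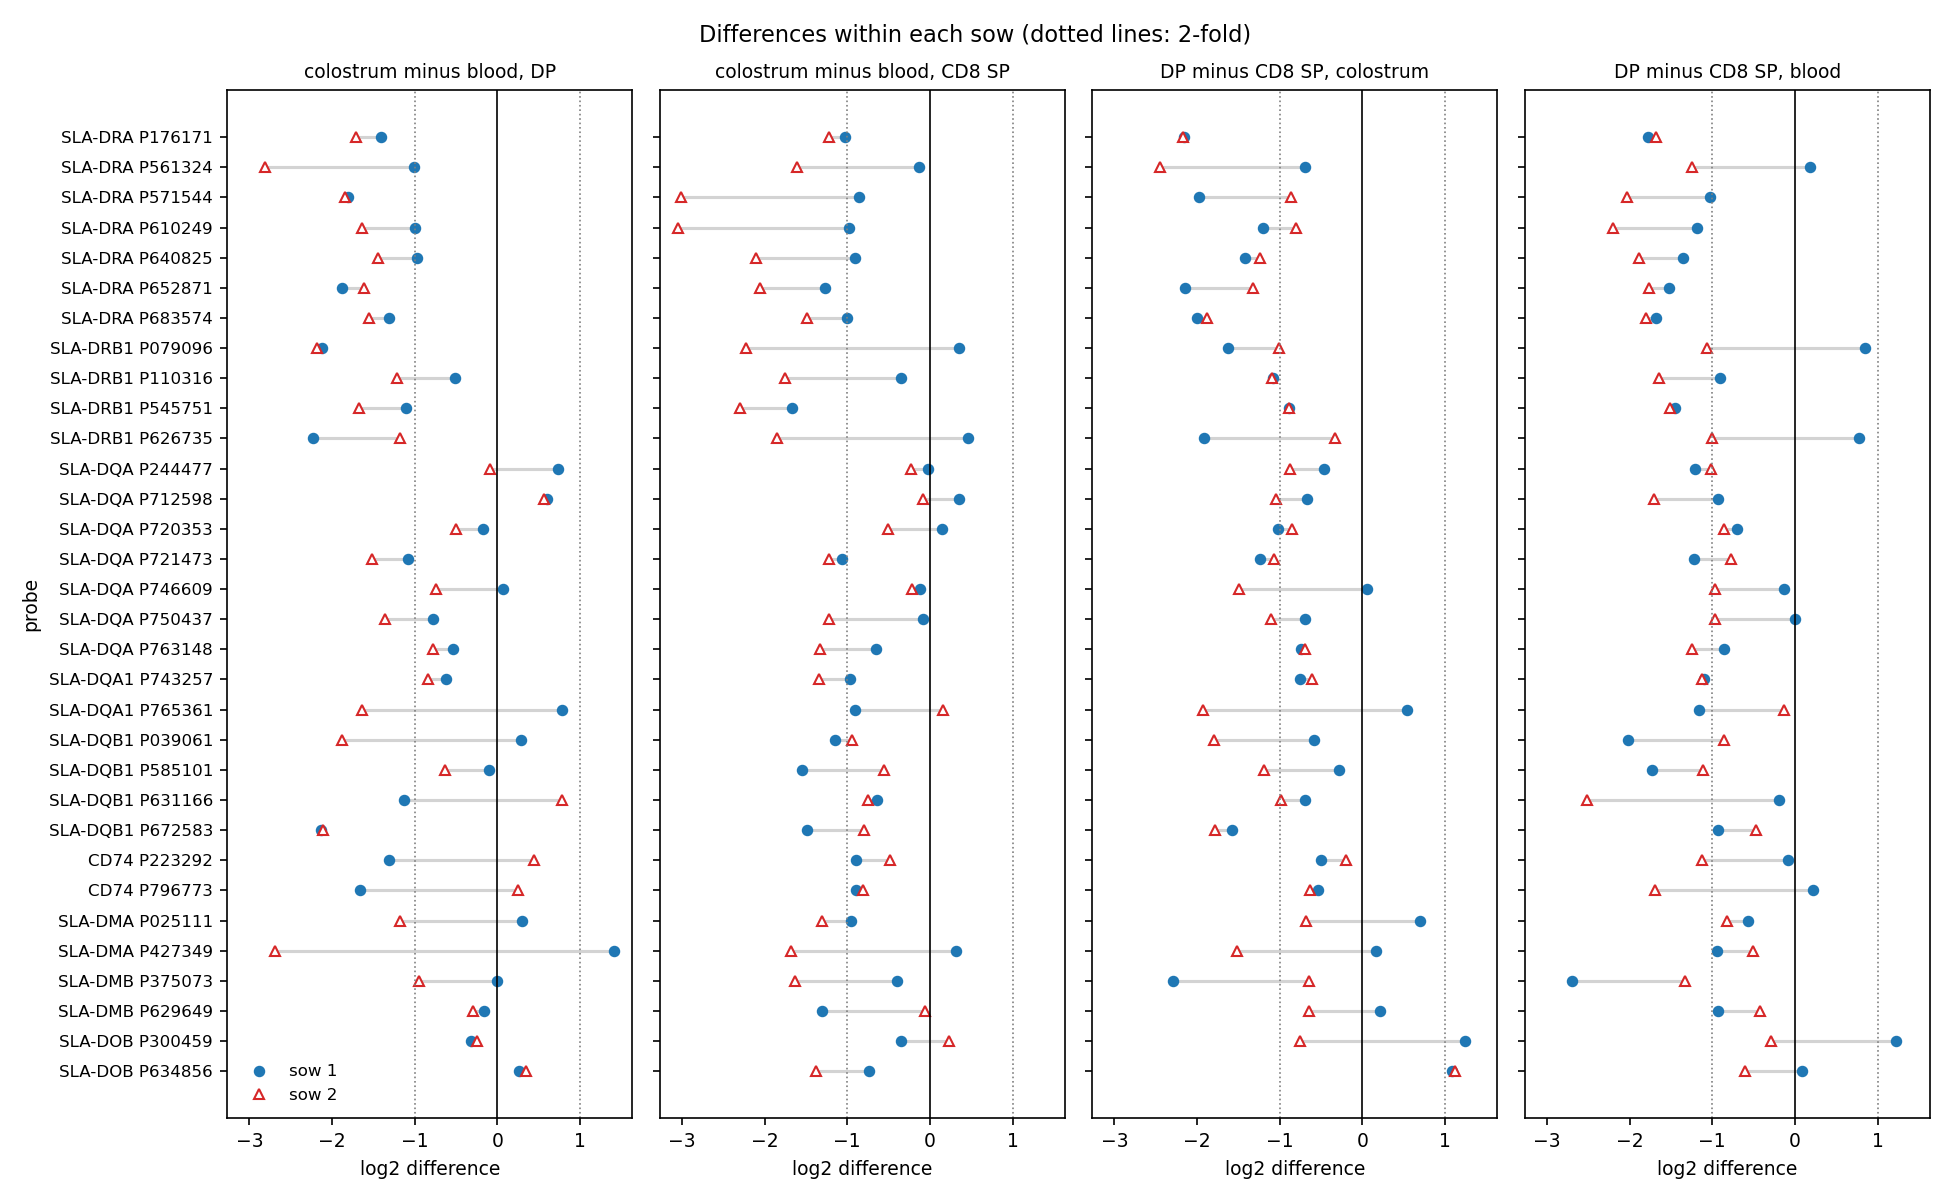
Log2 differences (x axis) of each tested class II probe (y axis) within sow 1 (circles) and sow 2 (open triangles), joined by a grey line, for colostrum minus blood in DP and CD8 SP cells and DP minus CD8 SP cells in colostrum and blood; dotted lines mark 2-fold. SLA-DRA pairs lie left of 0 except A_72_P561324 of sow 1 in blood (0.19), and SLA-DOB A_72_P634856 lies right of the 2-fold line in both sows in colostrum (1.08 and 1.12).

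By group means, blood CD8 SP cells were the highest group for 29 of 32 probes and colostrum DP cells the lowest for 27 of 32, against 24.2% and 26.2% of all tested probes. Both held for 11 of 11 DR probes. The highest group did not overlap the next for 16 of the 32 probes, and the lowest did not overlap the one above it for 16. The middle neighbours, colostrum CD8 SP and blood DP cells at most probes, were clear of each other for 5. For these counts of separate neighbours no share over all tested probes was computed, so they cannot be read as a trait of the class II probes. These orders restate the differences given above and were not tested.

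Colostrum DP cells of sow 2 gave the lowest value of the 8 samples for 10 of 11 DR probes and 7 of 13 DQ probes. That sample also had the lowest level of the T cell gene CD3G, 8.05 against 10.31 to 11.52 in the other 7 samples. Without it, the median over all class II probes was -0.66 for colostrum against blood in DP cells and -0.63 for DP against CD8 SP cells in colostrum. The SLA-DRA probes then ran from -1.86 to -0.64 and from -1.90 to -0.30.

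Across the 8 samples, which share 2 animals, the tested class II probes correlated with a median Pearson r of 0.61 over 496 pairs. The median r was 0.93 among SLA-DRA probes, 0.89 among all DR probes, 0.68 among DQ probes, 0.53 among DM probes and 0.71 between SLA-DRA and CD74 probes. Probes of 1 gene read the same transcript and are not independent.

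Of 1929 named genes above background in at least 4 samples, those with the highest r to SLA-DRA probe A_72_P561324 over the 8 samples were ETFB (0.99), TNNI2 (0.96), CD3G (0.94), PI4K2A (0.93) and SPTBN1 (0.93). Without the colostrum DP sample of sow 2, r was 0.95 for ETFB, a subunit of the mitochondrial electron transfer flavoprotein, and 0.67 to 0.78 for the other 4. To the mean of the 7 SLA-DRA probes, a pattern chosen after the data were seen, the most alike were SLA2 (0.97), NUP214 (0.95), NKL (0.94), SEH1L (0.93) and DIS3L2 (0.92). NKL, the lytic peptide NK-lysin of cytotoxic lymphocytes, stood at 9.21 and 7.86 in colostrum DP, 12.08 and 11.84 in colostrum CD8 SP, 11.15 and 9.77 in blood DP, and 13.48 and 14.14 in blood CD8 SP cells. SLA2 is the Src-like adaptor and no gene of the swine leukocyte antigens.

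The difference between the populations in their colostrum to blood difference had a median of 0.17 over the 32 probes, and 0 of them had an unadjusted p under 0.05, against 682 of all tested probes (2.23%). At SLA-DRA A_72_P683574 it was -0.19, with a 95% interval from -1.90 to 1.51, and at CD74 A_72_P796773 it was 0.15, from -1.83 to 2.13. These intervals leave room for differences of more than 2-fold either way. The comparisons of DP with CD8 SP cells use the same samples as those of colostrum with blood, so their values are given side by side and not as support for each other.

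Of 8 listed transcription factors of class II genes, 3 had a probe with that symbol, and CIITA was not analysed here. RFX5, which binds the class II promoter, stood at 7.69 and 7.18 in colostrum CD8 SP cells, against 8.74 and 8.45 in blood CD8 SP cells, a difference of -1.16 ± 0.49 (limma adjusted p = 0.911). CREB1, which binds nearby, was at 8.16 and 8.38 in colostrum CD8 SP cells, against 6.84 and 7.19 in blood CD8 SP cells, 1.26 ± 0.49. NFYB did not reach 2-fold in both sows in any comparison. RFX5 was lowest among the groups in colostrum DP cells by mean, at 7.40 and 7.21, with blood DP cells at 7.78 and 7.55.

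Of the 6 listed proteases and reductases that prepare class II peptides, 3 had a probe (CTSB, CTSD and IFI30), and 0 reached 2-fold in both sows in any comparison. Among the 8 genes listed for interferon gamma input, 5 had a probe and 1 stood 2-fold or more below its comparison group in each sow: IFNGR2, a receptor chain, at 6.08 and 6.51 in colostrum DP, against 7.59 and 8.64 in blood DP cells. Neither colostrum DP sample was above background, which gives at least 2.26-fold lower than in blood DP cells. IRF1, a transcription factor induced by interferon gamma, was at 9.72 and 10.19 in colostrum DP, 8.73 and 9.40 in colostrum CD8 SP, 9.56 and 8.81 in blood DP, and 9.15 and 8.49 in blood CD8 SP cells. Its DP samples thus lay above the CD8 SP sample of the same sow and source in every case.

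Class I genes, some of which encode chains that pair with B2M and show peptides to CD8+ T cells, were set beside the class II genes. The platform holds 20 class I probes, and each of the 6 measured class I genes was read by its brightest probe only. They had medians of -0.75 for colostrum against blood in DP cells, 0.04 in CD8 SP cells, -0.15 for DP against CD8 SP cells in colostrum and 0.33 in blood. In blood, all 6 were higher in DP cells in both sows (24.1% of all probes). The class II median there was -1.02 over all probes and -0.73 with 1 probe per gene. SLA-8 was at 9.24 and 9.75 in colostrum DP, against 10.76 and 11.12 in blood DP cells. SLA-7 stood at 5.92 and 5.58 in colostrum DP, 7.89 and 7.18 in colostrum CD8 SP, 7.52 and 6.68 in blood DP, and 7.51 and 6.29 in blood CD8 SP cells. This class I gene was above background in neither colostrum DP sample, which gives at least 1.12-fold lower than in blood DP and at least 1.52-fold lower than in colostrum CD8 SP cells, the direction of most class II probes.

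The class I partners were mixed. PSMB8, an immunoproteasome subunit, differed by -1.89 ± 0.72 between colostrum DP and blood DP cells and by -1.34 ± 0.72 between colostrum CD8 SP and blood CD8 SP cells. TAP1, a subunit of the class I peptide transporter, was at 6.93 and 6.11 in colostrum DP, where 1 of 2 samples was above background, against 9.03 and 7.83 in blood DP cells. CALR, the chaperone calreticulin, was at 9.05 and 7.86 in blood DP, against 10.38 and 9.47 in blood CD8 SP cells, a difference of -1.47 ± 0.59 (limma adjusted p = 0.972). Whether class I and class II genes differ was not tested.

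Of 7 tested activation genes, 5 were higher in colostrum DP than in colostrum CD8 SP cells in both sows, against 24.7% of all probes. In blood this held for 2 of 7, against 24.1%, while the class II median was -1.02. The 5 in colostrum were CTLA4, ICOS, CD40LG, CD80 and CD86. CD86 was above background in 1 of 2 colostrum DP samples and in no colostrum CD8 SP sample. CD69 went the other way, lower in colostrum DP than in colostrum CD8 SP cells in both sows (-1.17 and -0.19). IL2RA was above background in no colostrum sample. Whether colostrum DP cells were more activated was not tested. ICOS, a costimulatory receptor, was at 11.09 and 11.32 in colostrum DP, against 9.28 and 9.58 in colostrum CD8 SP cells (1.78 ± 0.52, limma adjusted p = 0.669). CD40LG, the CD40 ligand, was at 10.17 and 9.14 in colostrum DP, 7.73 and 7.26 in colostrum CD8 SP, 11.97 and 11.04 in blood DP, and 9.29 and 8.51 in blood CD8 SP cells. It was thus higher in DP than in CD8 SP cells of both sources, and lower in colostrum than in blood cells of both populations. CTLA4, an inhibitory receptor, was at 7.74 and 8.31 in colostrum DP, 5.34 and 7.27 in colostrum CD8 SP, 6.31 and 6.06 in blood DP, and 6.78 and 5.60 in blood CD8 SP cells. It was above background in no blood DP sample, which gives at least 2.20-fold higher in colostrum DP cells, and in 1 of 2 colostrum CD8 SP samples.

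Markers of other cells that carry class II molecules were read in the same samples. Of 14 B cell markers 3 had a probe, BLNK was above background in no sample, and the 3 intensities summed to 213 to 832 units in colostrum DP, 352 to 622 in colostrum CD8 SP, 200 to 222 in blood DP and 540 to 563 in blood CD8 SP cells. CD79A, part of the B cell receptor, was at 6.59 and 9.48 in colostrum DP, 7.62 and 8.76 in colostrum CD8 SP, 6.31 and 6.40 in blood DP, and 8.82 and 8.54 in blood CD8 SP cells. Its highest value was in the colostrum DP sample of sow 2, which held the lowest value at 10 of 11 DR probes. In blood CD79A was above background in both CD8 SP samples and in neither DP sample, the direction of most class II probes.

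Of 14 monocyte and macrophage markers 11 had a probe, and their sum was 944 to 1309 units in colostrum DP, 968 to 1029 in colostrum CD8 SP, 878 to 2231 in blood DP and 1458 to 1844 in blood CD8 SP cells. FCGR1A was above background in no sample, and CD14 in 4, with a highest CD14 level of 7.48. LYZ, the lysozyme of macrophages, was at 5.34 and 5.63 in colostrum DP, 6.56 and 6.29 in colostrum CD8 SP, 5.99 and 7.0 in blood DP, and 7.63 and 7.55 in blood CD8 SP cells. It was above background in the blood CD8 SP samples only, the group highest in class II, and stood at least 1.69-fold lower in colostrum than in blood CD8 SP cells and at least 1.62-fold lower in blood DP than in blood CD8 SP cells, the direction of most class II probes. CST3, a protease inhibitor abundant in macrophages, was at 7.10 and 5.34 in colostrum DP, 7.07 and 6.17 in colostrum CD8 SP, 6.36 and 6.38 in blood DP, and 8.73 and 7.22 in blood CD8 SP cells, again highest there. Other markers of this list went otherwise. MRC1 was above background in both colostrum DP samples (7.32 and 7.10) and in no CD8 SP sample of either source. CD163 had its highest level, 8.56, in the colostrum DP sample of sow 1, and S100A9 was above background in no blood sample. S100A8, in contrast, was highest in the blood samples of sow 2, at 8.43 in CD8 SP and 9.05 in DP cells. S100A12 was likewise highest there, at 9.05 in CD8 SP and 9.81 in DP cells. Of 12 dendritic cell markers 4 had a probe, and their sum was 405 to 460 units in colostrum DP, 405 to 626 in colostrum CD8 SP, 544 to 587 in blood DP and 668 to 694 in blood CD8 SP cells. XCR1 and CD209 were each above background in 1 sample, and IRF8 in 5. CD1D, above background in all 8, was at 8.29 and 8.23 in blood DP and 8.44 and 8.35 in blood CD8 SP cells. In colostrum CD1D was at 6.99 and 7.33 in DP and 7.62 and 7.97 in CD8 SP cells. The dendritic cell sum, which includes values below background, was highest in the group with the highest class II levels. The part of this sum in the result was not tested, nor that of the B cell and monocyte markers.

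Of 8 markers of NK and gamma delta T cells 5 had a probe, with a sum of 566 to 920 units in colostrum DP, 2090 to 3321 in colostrum CD8 SP, 377 to 583 in blood DP and 1464 to 1677 in blood CD8 SP cells. KLRK1, an activating receptor of cytotoxic cells, was at 9.07 and 8.26 in colostrum DP, 10.98 and 10.38 in colostrum CD8 SP, 7.26 and 7.79 in blood DP, and 10.02 and 9.98 in blood CD8 SP cells, and NCR1 was above background in no sample. Of 14 listed markers of mammary epithelium and milk 9 had a probe, and KRT18 was above background in no sample. The 9 summed to 952 to 959 units in colostrum DP and 953 to 3485 in colostrum CD8 SP cells. In blood the sum was 731 to 1121 in DP and 728 to 1191 in CD8 SP cells. CSN1S1, a milk casein, was at 5.34 and 5.46 in colostrum DP and 7.36 and 11.38 in colostrum CD8 SP cells. Its blood levels were 6.15 and 5.34 in DP and 5.58 and 8.60 in CD8 SP cells. The 3 measured markers of red cells and platelets, of 6 listed, summed to 425 to 593 units in colostrum DP and 380 to 402 in colostrum CD8 SP cells. In blood they summed to 809 to 939 in DP and 710 to 712 in CD8 SP cells. The part of these markers in the result was not tested.

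How far colostrum lies below blood depended on the scaling. With each channel scaled to its 75th percentile in place of quantile normalization, the class II median was -2.23 for colostrum against blood in DP cells and -2.16 in CD8 SP cells, while the median of all tested probes moved to 0.26 and 0.23. With this scaling 21 and 26 class II probes stood 2-fold or more below blood in each sow, against 12.1% and 10.1% of all probes. The comparisons within a source moved little, to medians of -0.83 for DP against CD8 SP cells in colostrum and -0.98 in blood.

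**Figure D5:**
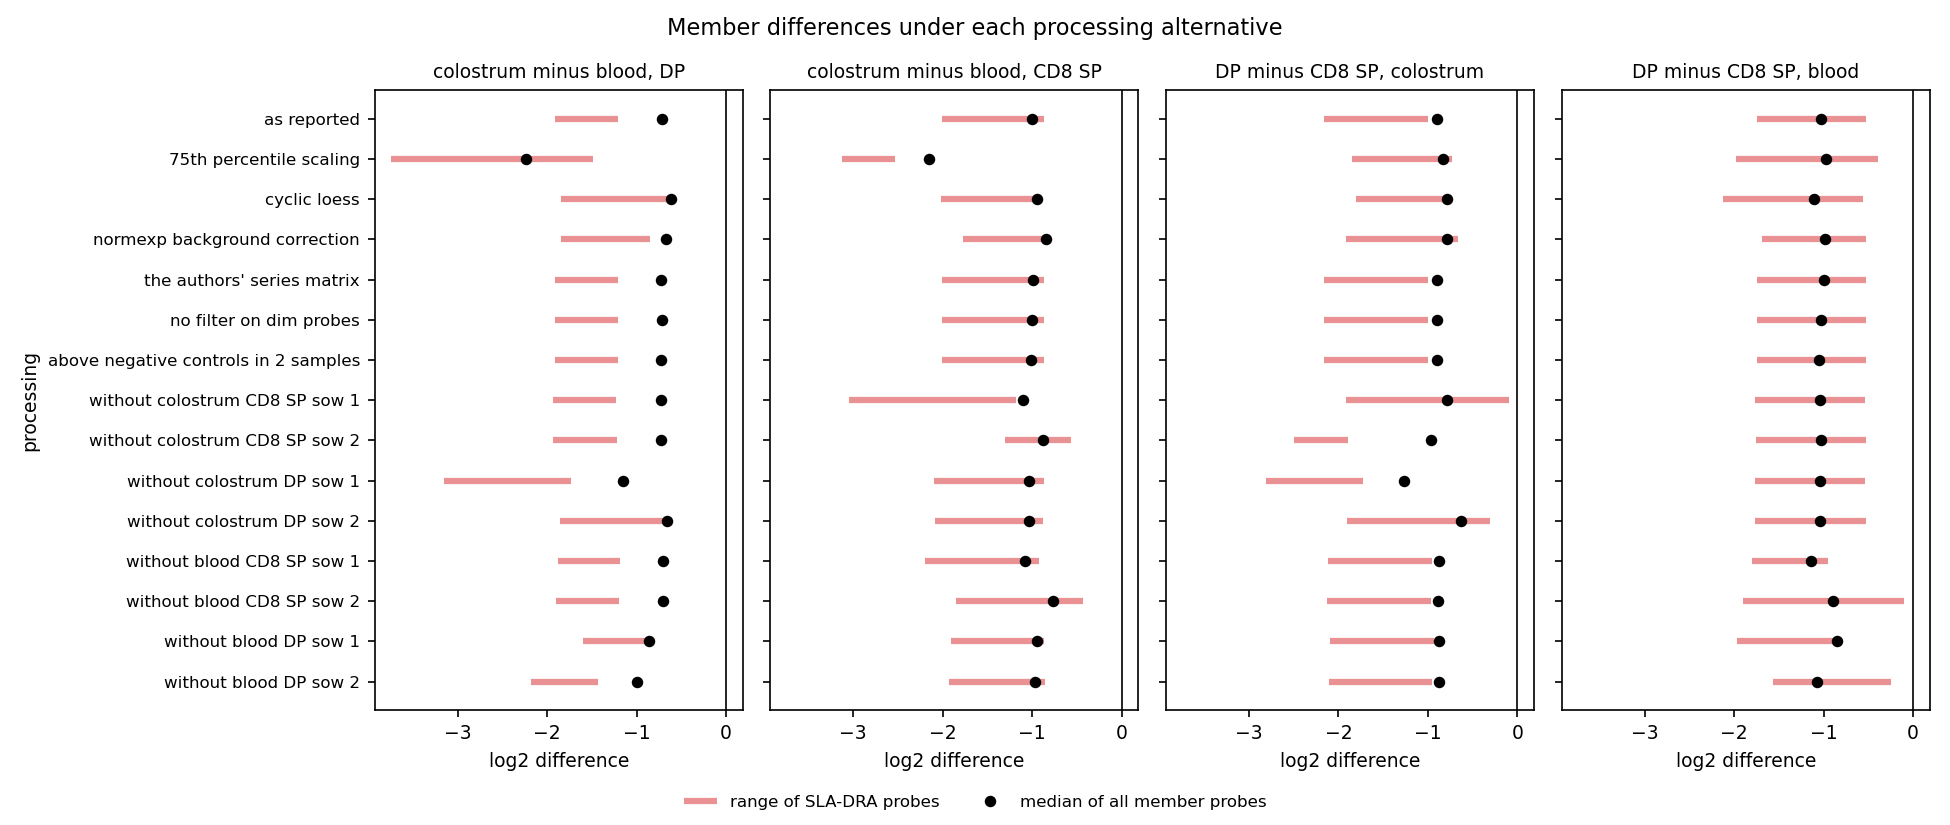
Median log2 difference of the tested class II probes (black points) and range of the 7 SLA-DRA probes (red bars) on the x axis, under each way of processing the data and with each sample left out (y axis), for the 4 comparisons. SLA-DRA stayed below 0 in every row, and the 75th percentile scaling moved the comparisons of colostrum with blood to -2.23 and -2.16. Rows that change only the filter repeat the SLA-DRA range as reported.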

How the data were processed

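The authors deposited 1 whole-number intensity per spot for each sample, with no header. Values below 0 occur, as after background subtraction, but the samples were not alike in background. Negative-control spots had medians of 68 to 81 in the colostrum samples and 1 to 8 in the blood samples. The median over all probes was 118 to 133 in colostrum and 27 to 34 in blood samples. The part of this offset in the comparisons of colostrum with blood was not tested. Scanner and background method: not given in the sources used here. Per the labels, 10 ng of RNA was amplified, and colostrum and blood were labelled with different dyes. The labels do not say which samples shared an array. The authors also deposited a series matrix of log2 values, which quantile normalization of the intensities rebuilt to within 0.1 for 99.3% of values; it served as an alternative.

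Spots of a probe were averaged, the 8 samples were quantile normalized over 43603 probes, a floor of 40.6 intensity units was set (the mean normalized median of 153 negative-control spots) and log2 was taken; 14.1% of tested values lay at the floor, where they have no order. Probes with a mean above the 30th percentile (30522) entered 1 limma fit (3.58.1, R 4.3.3) with 4 group means, with Benjamini-Hochberg adjusted p under 0.05 called. The code was tested on simulated data. Files gave no detection calls, so the negative controls supplied them.

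All class II probes are named; listed pathway genes are named with values where at least 2-fold in both sows, and markers as background, and the 5 genes most alike by Pearson r are named. IRF1, NKL, CD79A, KLRK1, LYZ, CST3, MRC1, CD163, S100A8, S100A9, S100A12, CD1D, IRF8, CSN1S1, CD69, CD80, CD86, IL2RA and SLA2 were singled out after their values were seen. Members, lists and tests were chosen with earlier results of these data known. The limma difference and SE were put through the alternatives for 21 probes (all DR, SLA-DQB1 and the brightest of each other gene). Replicate numbers name the sow, so they pair the samples; deviations from group means correlated at 0.31 and 0.28 between colostrum and blood samples of 1 population and 0.04 between populations of 1 source. Columns of other samples were 0. A bound sets the brighter group's mean against the dimmer group's, with values of the dimmer group raised to at least the lowest detectable signal.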

Additional observations from a re-analysis of the deposited data

Results flagged for a closer look

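SLA-DOB probe A_72_P634856 differed between the populations in its colostrum to blood difference by 1.35 (DP minus CD8 SP). Colostrum minus blood was 0.26 in sow 1 and 0.34 in sow 2 for DP cells, against -0.73 and -1.37 for CD8 SP cells, so both sows moved one way in DP and the opposite way in CD8 SP cells. limma's interaction term did not call it (adjusted p = 1.00). Under 75th percentile scaling the DP difference was -0.42.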

How the results depend on the processing

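Over all tested class II probes, 10 of 128 differences turned sign under 75th percentile scaling and 5 of 128 under cyclic loess. None turned under normexp (of 128) or in the authors' series matrix (of 124), and 51 of 1024 turned with 1 sample left out. The other settings change only the filter, the samples fitted or the block and keep the same differences, so no sign could turn there. Among the 21 probes whose fitted differences were followed, those turned were SLA-DMB A_72_P375073 under cyclic loess (0.76) and SLA-DOB A_72_P634856 under 75th percentile scaling (-0.42), both colostrum against blood in DP cells, and, for DP against CD8 SP cells in blood under 75th percentile scaling, SLA-DRB1 A_72_P079096 (0.0643) and A_72_P626735 (0.0604). Leaving out 1 sample gave ranges across 0 for colostrum against blood in DP cells at CD74 A_72_P796773 (-1.64 to 0.24), SLA-DMA A_72_P427349 (-1.77 to 0.42), SLA-DMB A_72_P375073 (-1.39 to 0.50) and SLA-DQB1 A_72_P039061 (-1.63 to 0.0390), A_72_P585101 (-0.98 to 0.27) and A_72_P631166 (-0.93 to 0.58). In CD8 SP cells it did so for SLA-DMA A_72_P427349 (-1.45 to 0.11) and SLA-DRB1 A_72_P079096 (-2.07 to 0.12) and A_72_P626735 (-1.80 to 0.36). For DP against CD8 SP cells it did so in blood for CD74 A_72_P796773 (-1.65 to 0.21), SLA-DMA A_72_P427349 (-1.66 to 0.27) and SLA-DRB1 A_72_P079096 (-0.80 to 0.60) and A_72_P626735 (-0.87 to 0.66), and in colostrum for SLA-DMA A_72_P427349 (-1.83 to 0.37) and SLA-DQB1 A_72_P585101 (-1.61 to 0.11).

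The class II median with 1 sample left out ran from -1.16 to -0.66 for colostrum against blood in DP cells, and for DP against CD8 SP cells from -1.27 to -0.63 in colostrum and -1.14 to -0.85 in blood. It was -2.23 in DP and -2.16 in CD8 SP cells under 75th percentile scaling, and -0.73 for DP against CD8 SP cells in blood with 1 probe per gene (9 probes). The next counts are of class II probes at least 2-fold lower in both sows, with the share of all tested probes in brackets. For colostrum against blood in DP cells they numbered 21 under 75th percentile scaling (12.1%), 7 under normexp (1.11%) and 2 with 1 probe per gene (4.9%). In CD8 SP cells they numbered 26 with that scaling (10.1%), 9 with cyclic loess (3.28%) and 0 with 1 probe per gene (3.63%). For DP against CD8 SP cells they numbered 5 in colostrum (2.35%) and 7 in blood (4.28%) under 75th percentile scaling. With 1 probe per gene they numbered 2 in colostrum (3.66%) and 2 in blood (2.17%). The SLA-DOB probe at least 2-fold higher in colostrum DP cells was not so (0 probes) with normexp, cyclic loess or the 75th percentile.

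Over all probes, normexp called 6 in colostrum against blood in CD8 SP cells and 1 each in DP cells and in DP against CD8 SP cells of colostrum and blood. A random block of sow and population pair called 1 in CD8 SP cells. Leaving out 1 sample called 0 to 2 there and 0 to 1 in DP against CD8 SP cells of colostrum. The replicate block (sow as a fixed term) called 0 in every comparison and changed no call. No class II probe was called under any alternative, and the lowest adjusted p (limma) was 0.0566, 0.152, 0.486 and 0.178 (DP and CD8 SP cells against blood, then DP against CD8 SP cells in colostrum and blood). The causes of these moves were not tested. Dim SLA-DM and SLA-DOB probes gave bounds or values near background.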

Other observations

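Another pair of probes carries the platform symbol SLA and the RefSeq accession of SLA-DOA, the alpha chain of DO. A_72_P375623 was above background in no sample. A_72_P513855 was above background in 2 samples, at 5.97 and 6.11 in colostrum DP, 7.23 and 6.06 in colostrum CD8 SP, 7.20 and 6.38 in blood DP, and 5.34 and 5.89 in blood CD8 SP cells.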
